A study of Mus musculus with 20 samples.

Results

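The genes followed here are the transcription factor NRF2 (gene Nfe2l2), its inhibitor Keap1, and 8 genes named as antioxidant targets of NRF2, namely Nqo1, Gclc, Gclm, Hmox1, Txnrd1, Srxn1, Slc7a11 and Osgin1. They were picked by symbol and are 10 of the 34933 named genes in the deposited tables. RNA was sequenced from livers of wild-type (WT) mice that were all made obese by diet (DIO). Each mouse received rosuvastatin together with GGOH (the combination), rosuvastatin alone, GGOH alone or vehicle, with 5 mice per group and 20 libraries in all. Dose, duration, age, sex and batch are not given in the sources used here, and no group of lean mice was analysed here.

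NRF2 is a transcription factor that, with small MAF partners, binds antioxidant response elements near genes of glutathione, thioredoxin and quinone metabolism. KEAP1, an adaptor of a CUL3 ubiquitin ligase, marks NRF2 for degradation and loses that hold when oxidants or electrophiles modify its cysteines. Control is therefore largely at the level of NRF2 protein, which RNA sequencing does not measure. Rosuvastatin inhibits HMG-CoA reductase of the mevalonate pathway, and GGOH (geranylgeraniol) is an alcohol that cells can convert to geranylgeranyl pyrophosphate, a product of that pathway.

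The promoters of 3 genes are shown because these genes, Srxn1, Gclm and Osgin1, are among those with the largest shifts relative to their error below. Each is the RefSeq window on GRCm38.p6 from 250 bases before to 50 bases after the start, 5′ to 3′ on the gene's strand. Capitals mark 2 motifs searched on both strands, the antioxidant response element core TGACNNNGC and the extended MAF element TGANTCAGC. The second contains the AP-1 core TGANTCA, and a site can satisfy both patterns, which none of those shown did. Srxn1 (chr2:152105274-152105573, plus strand) held the second motif 45 bases before the start and the reverse complement of the first 29 bases after it. Gclm (chr3:122245307-122245606, plus strand) held the reverse complement of the first motif 134 bases before the start. Osgin1 (chr8:119436897-119437196, plus strand) held the reverse complement of the second motif 99 bases before the start. The annotated Osgin1 gene begins at 119434124, upstream of this window, so the start used here is not its first.
Srxn1: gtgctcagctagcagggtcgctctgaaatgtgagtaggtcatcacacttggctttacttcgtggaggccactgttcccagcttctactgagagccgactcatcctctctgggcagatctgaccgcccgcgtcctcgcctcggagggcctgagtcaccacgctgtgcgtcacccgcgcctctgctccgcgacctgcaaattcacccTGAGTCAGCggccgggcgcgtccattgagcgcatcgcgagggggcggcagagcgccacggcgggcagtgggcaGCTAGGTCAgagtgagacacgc
Gclm: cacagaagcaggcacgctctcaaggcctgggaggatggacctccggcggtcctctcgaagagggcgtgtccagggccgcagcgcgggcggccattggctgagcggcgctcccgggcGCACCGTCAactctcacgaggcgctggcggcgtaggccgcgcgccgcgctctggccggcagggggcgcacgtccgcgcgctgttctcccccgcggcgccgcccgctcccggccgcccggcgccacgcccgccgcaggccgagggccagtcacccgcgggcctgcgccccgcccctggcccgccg
Osgin1: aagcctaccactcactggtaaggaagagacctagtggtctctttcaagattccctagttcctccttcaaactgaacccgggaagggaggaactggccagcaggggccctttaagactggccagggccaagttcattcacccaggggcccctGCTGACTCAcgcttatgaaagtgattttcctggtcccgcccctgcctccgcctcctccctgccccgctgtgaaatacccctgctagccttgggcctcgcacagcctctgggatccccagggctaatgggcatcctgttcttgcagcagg

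Promoter windows were at hand for 8 of the 10 genes, and Gclc and Hmox1 had none. These 8 genes have 10 windows, since Txnrd1 has 3 listed starts. The first motif was found in 4 of the 10 windows, in 4 genes, against 12.4% of all 32851 RefSeq promoter windows. Besides Srxn1 and Gclm these were Nfe2l2 (chr2:75704614-75704913, minus strand; TGACTCCGC, 240 bases before the start) and the second of 3 listed starts of Txnrd1 (chr10:82858956-82859255, plus strand; GCTTTGTCA on the printed strand, 92 bases before the start). The second motif was found in 2 of the 10 windows, against 1.19% of all windows. Neither was found in the windows of Keap1, Nqo1 and Slc7a11. A match here is a run of letters and was not shown to be bound.

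Before the changes, the levels were compared per length, as TPM (transcript abundance scaled for length and depth) over all 20 livers. Gclm, the modifier subunit of glutamate-cysteine ligase, had the highest level at 117 ± 35.7 TPM (SD). Gclc, the catalytic subunit, followed at 61.9 ± 19.5 TPM and Osgin1 at 56.8 ± 37.1 TPM. The ranges of these 2 over the livers overlapped, and their difference within livers was not tested. Nfe2l2 was at 29.0 ± 7.15 TPM. Srxn1, Txnrd1 and Hmox1 lay together at 19.0 ± 7.09, 18.9 ± 6.32 and 15.1 ± 8.08 TPM. Nqo1 at 7.91 ± 2.46 TPM and Keap1 at 7.72 ± 2.59 TPM were also alike, and Slc7a11 was lowest at 0.118 ± 0.0503 TPM. The tissue itself was hepatocyte-rich in every library, with Alb between 14661 and 45244 TPM.

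The libraries held between 8548120 and 18373913 estimated counts (median 15697884). The scaling factor by trimmed mean of M-values (TMM), which compares the bulk of genes between libraries, ran from 0.761 to 1.25, and both ends were vehicle libraries. The share of counts from mitochondrial genes was 27.9% and 29.2% in combination mice 2 and 3 and at most 17.1% in the others. The levels of a library, relative to the mean of all libraries, were correlated across genes with GC content. This correlation was positive in 5 of 5 combination, 5 of 5 rosuvastatin, 1 of 5 GGOH and 2 of 5 vehicle libraries. In whole liver, fewer cells of a type and less RNA per cell cannot be told apart.

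No member passed an adjusted p of 0.05 in any of 8 comparisons by the edgeR quasi-likelihood test over 12789 genes. At that threshold 0% of all genes passed in 7 comparisons, and 0.00782% (1 gene, Cyp2b10, not a member) passed in the average effect of GGOH. By unadjusted edgeR p the members nearest to a difference were Srxn1 with rosuvastatin (0.00532) and Hmox1 with GGOH (0.0158), both higher than with vehicle. By the exact permutation test described next, they were Srxn1, higher with rosuvastatin and with GGOH than with vehicle, and Hmox1, higher with rosuvastatin and with the combination. Osgin1 was higher with the combination than with vehicle by that test. Gclm was lower with the combination than with vehicle, and lower in the average effect of rosuvastatin. It was also lower with the combination than with GGOH, where 13.7% of all genes had an exact p under 0.05. For single values an exact two-sided permutation of the mice between groups on log2(CPM + 0.5) is given, unadjusted, one of 63 such tests (9 members, 7 comparisons) of which 8 had p under 0.05; with 5 mice against 5 its smallest possible p is 0.00794. It was added after seeing the data. Members with an exact p under 0.05 numbered 2 of 9 for rosuvastatin against vehicle (3.17% of all genes), 1 for GGOH against vehicle (3.06%), 0 for the combination against rosuvastatin (1.68%), 3 for the combination against vehicle (4.34%) and 1 for the combination against GGOH (13.7%). They numbered 1 for the average effect of rosuvastatin (15% of all genes) and 0 for that of GGOH (1.75%). An effect averaged over the other compound was permuted within its 2 strata. Below, levels by mouse are CPM (counts relative to library size), scaled by TMM, and fold changes are log2 values ± SE from 1 model of all 20 livers. An interval is the estimate ± 1.96 SE, about 95%.

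**Figure D1:**
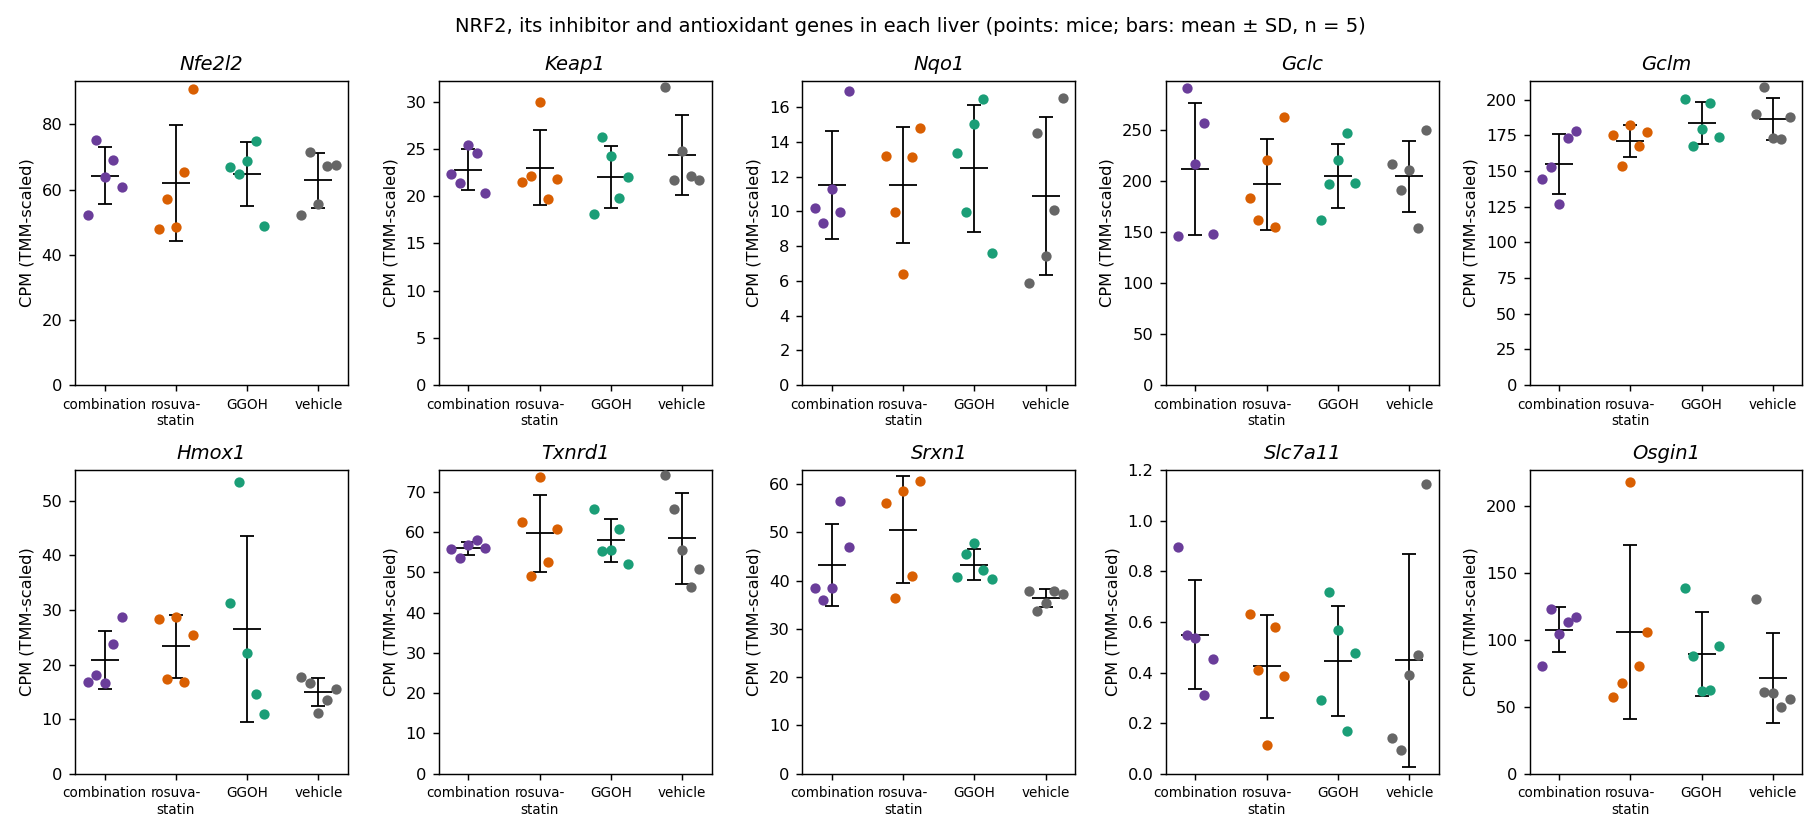
Level of each of the 10 genes in every liver, in TMM-scaled CPM, with 1 point per mouse and the group mean ± SD (n = 5) as bars. The Srxn1 values of the 5 vehicle mice, 33.6 to 37.9 CPM, are packed closely, while Hmox1 in GGOH mice spreads from 10.9 to 53.5 CPM.

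Nfe2l2 itself (chromosome 2, 75675513 to 75704641, minus strand, GRCm38) had nearly the same mean in all groups. It measured 52.2, 75.4, 63.8, 69.1 and 60.9 CPM in the combination mice, 47.9, 57.1, 48.5, 65.3 and 91.0 CPM in rosuvastatin mice, 67.1, 64.8, 68.8, 74.9 and 48.7 CPM in GGOH mice, and 52.3, 71.7, 55.4, 67.2 and 67.6 CPM in vehicle mice. Rosuvastatin mouse 5 was the highest of all 20, and all groups overlapped. In the 5 pairwise comparisons its log2 fold change lay between -0.02 and 0.05, with intervals reaching from -0.36 to 0.39, and the smallest adjusted edgeR p over all 8 comparisons was 0.953.

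Keap1 (chromosome 9, 21229730 to 21239361, minus strand) averaged 22.8 ± 2.14 CPM with the combination, 23.0 ± 3.99 with rosuvastatin, 22.1 ± 3.28 with GGOH and 24.4 ± 4.22 with vehicle (SD, n = 5 each). Its highest values were 31.5 CPM in vehicle mouse 1 and 29.9 CPM in rosuvastatin mouse 3, and the rest lay between 18.1 and 26.2 CPM. Its pairwise log2 fold changes lay between -0.14 and 0.04. Keap1 is one of the members richest in GC, at 58.0%. With offsets for GC content and length, added after seeing the data, the average effect of rosuvastatin on Keap1 was -0.34 ± 0.10 (edgeR adjusted p = 0.424), where without them it was -0.02 ± 0.10. Across livers, with group means removed, Keap1 tracked the GC correlation of the library (Pearson r = 0.650, Spearman rho = 0.608). The permutation p adjusted over 36 relations was 0.0495 for r and 0.0915 for rho. Leaving out the 2 farthest libraries gave r = 0.553 (adjusted permutation p = 0.155). Keap1 was also higher where the TMM factor was higher (r = 0.634, adjusted permutation p = 0.0495, and 0.483 without 2 libraries). Of the 36 relations of members with library measures, 8 passed 0.05 by Pearson and 0 by Spearman.

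Glutathione synthesis begins with glutamate-cysteine ligase. Gclc (chromosome 9, 77754535 to 77794485, plus strand) measured 146, 291, 217, 257 and 148 CPM in combination mice, 184, 162, 221, 155 and 262 CPM in rosuvastatin mice, 162, 197, 220, 247 and 198 CPM in GGOH mice, and 216, 191, 211, 154 and 250 CPM in vehicle mice. The combination mice held both the highest and the lowest of the 20 values. Every pairwise log2 fold change of Gclc lay between -0.06 and 0.11, with intervals from -0.46 to 0.51.

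Gclm (chromosome 3, 122245557 to 122270732, plus strand) measured 145, 153, 127, 174 and 178 CPM in combination mice, 175, 154, 182, 168 and 177 CPM in rosuvastatin mice, 201, 167, 179, 197 and 174 CPM in GGOH mice, and 190, 209, 173, 172 and 188 CPM in vehicle mice. Combination mice 1 to 3 lay below every vehicle and GGOH mouse, and mice 4 and 5 lay among them. The mean was 155 ± 21.1 CPM with the combination and 186 ± 14.9 CPM with vehicle (SD, n = 5 each). The log2 fold change of the combination against vehicle was -0.26 ± 0.12 (interval -0.51 to -0.02; edgeR adjusted p = 0.817; exact permutation p = 0.0476). Gclm was the 1 member of 9 tested with an unadjusted edgeR p under 0.05 in that comparison, where 5.5% of all genes had one. Its unadjusted p was under 0.05 in 3 of 11 alternative settings and in 5 of 20 fits that each left out 1 library. Without combination mouse 3 the fold change was -0.18 (exact permutation p = 0.0794). Against GGOH the combination gave -0.24 ± 0.12 (edgeR adjusted p = 0.371; exact permutation p = 0.0476), and no member had an unadjusted edgeR p under 0.05 there, against 14% of all genes. Averaged over mice with and without GGOH, rosuvastatin gave -0.18 ± 0.09 for Gclm (edgeR adjusted p = 0.344, exact permutation p = 0.00627), a value picked after the tests were seen. Of all genes, 15% had an exact p under 0.05 for that effect. The 3 low Gclm values came from the combination libraries with the highest mitochondrial shares (17.1, 27.9 and 29.2%, against 13.4 and 9.12% in mice 4 and 5). Across 20 livers with group means removed, Gclm was lower where the mitochondrial share was higher (Pearson r = -0.765, Spearman rho = -0.740). The permutation p adjusted over 36 relations was 0.0495 for r and 0.0745 for rho. Leaving out the 2 libraries farthest from the median gave r = -0.595 (adjusted permutation p = 0.224). With combination mice 2 and 3 and vehicle mouse 1 left out together, a choice made after seeing the data, the combination gave -0.15 against vehicle (edgeR adjusted p = 0.798; exact permutation p = 0.286). In TPM, combination mice ranged from 88.3 to 123 and vehicle mice from 74.8 to 203, and the log2(TPM + 1) difference was -0.09 (limma, adjusted p = 1.00).

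Gclm also had the smallest spread within groups, an SD of 0.14 on the log2 CPM scale, at the 0.665th percentile of all tested genes (median SD 0.40). Slc7a11, the cystine transporter that feeds this pathway (chromosome 3, 49892526 to 50443614, minus strand), had only 1 to 14 counts per library and did not pass the low-count filter. Its counts were 14, 10, 5, 5 and 9 in combination mice, 9, 6, 2, 10 and 7 in rosuvastatin mice, 3, 14, 9, 3 and 8 in GGOH mice, and 3, 1, 6, 5 and 12 in vehicle mice. With the filter removed its adjusted edgeR p was between 0.870 and 1.00 in the 8 comparisons, and a difference was not detectable at this depth.

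Thioredoxin reductase and sulfiredoxin serve the other thiol system. Txnrd1, which reduces thioredoxin with NADPH (chromosome 10, 82833951 to 82897712, plus strand), averaged 56.0 ± 1.63 CPM with the combination, 59.7 ± 9.54 with rosuvastatin, 57.9 ± 5.45 with GGOH and 58.5 ± 11.3 with vehicle (SD, n = 5 each). Its pairwise log2 fold changes lay between -0.09 and 0.03, with intervals from -0.37 to 0.30.

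Srxn1, the sulfiredoxin that restores over-oxidised peroxiredoxins (chromosome 2, 152105516 to 152111376, plus strand; both motifs in the window printed above), measured 38.4, 35.98, 38.4, 56.6 and 46.9 CPM in combination mice, 56.1, 36.3, 58.6, 40.9 and 60.5 CPM in rosuvastatin mice, 40.7, 45.5, 47.9, 42.2 and 40.3 CPM in GGOH mice, and 37.9, 33.6, 35.3, 37.9 and 37.1 CPM in vehicle mice. Rosuvastatin mice 1, 3 and 5 stood at 56.1 CPM or more, rosuvastatin mouse 4 at 40.9 CPM was also above all vehicle mice, and mouse 2 was within the vehicle range. The mean was 50.5 ± 11.1 CPM with rosuvastatin and 36.4 ± 1.86 CPM with vehicle (SD, n = 5 each). The log2 fold change of rosuvastatin against vehicle was 0.47 ± 0.15 (interval 0.17 to 0.77; edgeR adjusted p = 0.973; exact permutation p = 0.0317). Srxn1 was the 1 member of 9 with an unadjusted edgeR p under 0.05 in this comparison, where 3.69% of all genes had one. Its unadjusted p from the fitted models stayed under 0.05 in 11 of 11 alternative settings, with log2 values between 0.34 and 0.95, and when each of the 20 libraries was left out in turn, with 0.43 to 0.57. Without combination mice 2 and 3 and vehicle mouse 1 it was 0.50 (edgeR adjusted p = 0.316; exact permutation p = 0.0635).

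All 5 GGOH mice lay above all 5 vehicle mice in Srxn1, 40.3 to 47.9 CPM against 33.6 to 37.9 CPM. Of all genes 0.43% had groups that did not overlap in this comparison. The log2 fold change was 0.25 ± 0.15 (edgeR adjusted p = 1.00; exact permutation p = 0.00794, the smallest possible), and in TPM the groups overlapped, with 14.2 to 19.7 in GGOH mice and 9.12 to 22.9 in vehicle mice. For the combination against rosuvastatin, where no member had an unadjusted p under 0.05 against 1.69% of all genes, Srxn1 had the smallest p of the members (-0.22 ± 0.15, exact permutation p = 0.278). The interaction asks whether adding GGOH has another effect under rosuvastatin than without it, as the combination-over-rosuvastatin change minus the GGOH-over-vehicle change. It was -0.48 ± 0.21 for Srxn1 (interval -0.90 to -0.05; edgeR adjusted p = 0.999). Averaged over mice with and without GGOH, rosuvastatin gave 0.24 ± 0.11 for Srxn1 (edgeR adjusted p = 0.338; exact permutation p = 0.0768). Srxn1 was the 1 member with an unadjusted edgeR p under 0.05 there, against 14.4% of all genes, and with the GC and length offsets the value was 0.10. Its unadjusted p was under 0.05 in 7 of 10 alternative settings and in 11 of 20 fits that each left out 1 library.

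Hmox1 encodes heme oxygenase 1, which opens heme to biliverdin, iron and carbon monoxide, and in liver it is also abundant in Kupffer cells, the resident macrophages that take up red cells. Hmox1 (chromosome 8, 75093621 to 75100589, plus strand) measured 16.8, 18.0, 16.6, 23.8 and 28.7 CPM in combination mice, 28.4, 17.4, 28.7, 16.8 and 25.3 CPM in rosuvastatin mice, 31.3, 53.5, 22.1, 14.6 and 10.9 CPM in GGOH mice, and 17.8, 16.6, 11.2, 13.5 and 15.6 CPM in vehicle mice. GGOH mice 1 to 3 exceeded every vehicle mouse, GGOH mouse 5 was below them all, and GGOH mouse 2 was the highest liver of the study. The mean was 26.5 ± 17.0 CPM with GGOH and 14.9 ± 2.61 CPM with vehicle (SD, n = 5 each). The log2 fold change of GGOH against vehicle was 0.82 ± 0.31 (edgeR adjusted p = 1.00), and Hmox1 was the 1 member of 9 with an unadjusted edgeR p under 0.05, against 2.86% of all genes. The exact permutation test, on log values, gave p = 0.190. Over the alternative settings the unadjusted model p was under 0.05 in 8 of 11 and in 19 of 20 fits that each left out 1 library. Without GGOH mouse 2 the fold change was 0.40 (exact permutation p = 0.389).

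Rosuvastatin against vehicle gave 0.64 ± 0.31 for Hmox1 (edgeR adjusted p = 0.973; exact permutation p = 0.0317), with 23.3 ± 5.81 CPM in rosuvastatin mice and 14.9 ± 2.61 CPM in vehicle mice (SD, n = 5 each). The combination averaged 20.8 ± 5.30 CPM (SD, n = 5), 0.48 ± 0.31 against vehicle (edgeR adjusted p = 0.817; exact permutation p = 0.0397). The interaction was -0.99 ± 0.44 (interval -1.86 to -0.13; edgeR adjusted p = 0.999), and without GGOH mouse 2 it was -0.58. Hmox1 and Srxn1 were the 2 members of 9 with an unadjusted edgeR p under 0.05 in the interaction, both negative, against 2.89% of all genes. With combination mice 2 and 3 and vehicle mouse 1 left out no member had one, and with the replicate block or on log2(TPM + 1) 1 member had one. The unadjusted p of Hmox1 was under 0.05 in 5 of 10 alternative settings and in 11 of 20 fits that each left out 1 library, and that of Srxn1 in 9 of 10 and 11 of 20. For the average effect of GGOH, where no member and 1.7% of all genes had an unadjusted edgeR p under 0.05, Hmox1 was the member with the smallest one (0.33 ± 0.22; exact permutation p = 0.396).

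Kupffer cell markers were compared with these Hmox1 values. The summed level of the 7 markers was 457, 498, 341, 231 and 122 CPM in GGOH mice 1 to 5, the same order as their Hmox1 levels, with mouse 2 highest and mouse 5 lowest in both. The other groups did not share this order. The highest sum of the combination mice, 307 CPM in mouse 1, went with 16.8 CPM of Hmox1, and their highest Hmox1, 28.7 CPM in mouse 5, went with a sum of 266 CPM. The highest sum of the vehicle mice, 373 CPM in mouse 2, went with 16.6 CPM of Hmox1, and their highest Hmox1, 17.8 CPM in mouse 1, went with a sum of 216 CPM. Across groups it ranged from 182 to 307 CPM in combination mice, 211 to 485 in rosuvastatin mice, 122 to 498 in GGOH mice and 183 to 373 in vehicle mice, with no marker at 0 in all libraries of a group. The median log2 fold change of the 7 markers was 0.36 for GGOH against vehicle (7 of 7 positive) and 0.23 for rosuvastatin against vehicle (6 of 7 positive). For the interaction it was -0.59 (0 of 7 positive), and 0 of the 7 had an unadjusted p under 0.05 in these 3 comparisons. The 6 markers of lipid-associated macrophages had an interaction median of -0.52 (0 of 6 positive, and 1 with an unadjusted edgeR p under 0.05). For the combination against vehicle, where Hmox1 was also higher, the median was 0.02 for Kupffer cell markers (4 of 7 positive). It was -0.03 there for lipid-associated macrophage markers (2 of 6) and -0.23 for neutrophil markers (2 of 4). Neutrophil markers, 6 genes of which 4 were tested, had a median of 0.66 for GGOH against vehicle (4 of 4 positive) and -0.90 for the interaction (0 of 4 positive), with 0 of 4 at an unadjusted edgeR p under 0.05 in either. For rosuvastatin against vehicle the median of the neutrophil markers was -0.02 (2 of 4 positive). The summed level of the neutrophil markers was 44.8 and 39.7 CPM in GGOH mice 1 and 2, which had the highest Hmox1, and 6.54 to 14.9 CPM in GGOH mice 3 to 5. It ranged from 6.01 to 18.8 CPM in combination mice, 8.69 to 18.9 in rosuvastatin mice and 3.20 to 31.0 in vehicle mice, and Ly6g was at 0 in every library of these 3 groups. Over the 20 livers, with group means removed, Hmox1 was higher where the marker sum was higher (Pearson r = 0.713, permutation p = 0.00852, adjusted over 36 relations 0.0495; Spearman rho = 0.611, adjusted p = 0.0915). Without the 2 libraries farthest from the median r was 0.506 (permutation p = 0.0628, adjusted 0.377), so the relation rests in part on them. For Srxn1 the same correlation was 0.0829. The part of Kupffer cells or neutrophils in the Hmox1 values was not tested.

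**Figure D2:**
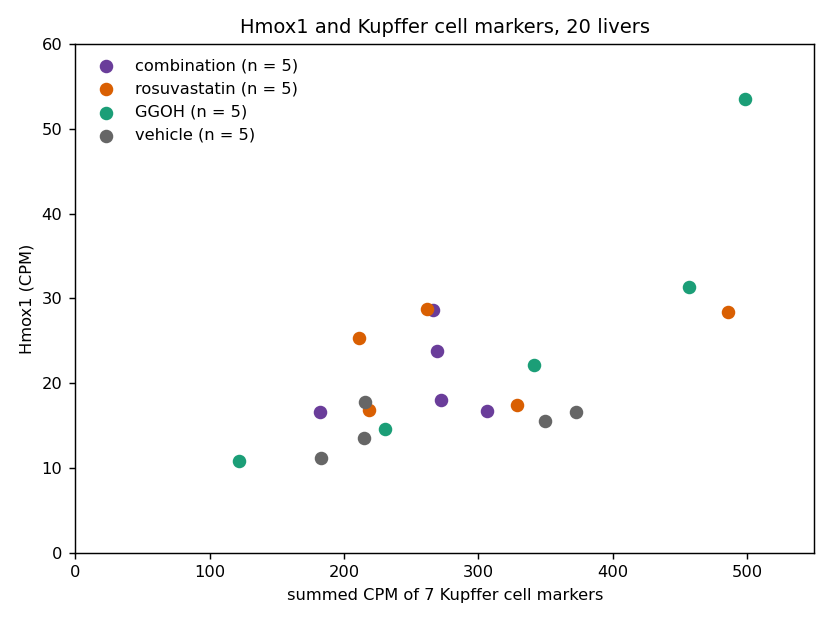
Hmox1 level against the summed level of 7 Kupffer cell markers, both in TMM-scaled CPM, with 1 point per liver coloured by group (n = 5 each). The 2 GGOH livers with the highest Hmox1 in their group, 31.3 and 53.5 CPM, have marker sums of 457 and 498 CPM.

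Nqo1, a quinone reductase that is widely used as a readout of NRF2 activity, was low in these livers (chromosome 8, 107388225 to 107403206, minus strand). It measured 10.2, 9.35, 11.3, 9.95 and 16.9 CPM in combination mice, 13.2, 9.94, 6.41, 13.1 and 14.8 CPM in rosuvastatin mice, 13.4, 9.94, 15.05, 16.5 and 7.61 CPM in GGOH mice, and 5.87, 14.5, 7.42, 10.1 and 16.5 CPM in vehicle mice. The vehicle mice alone spanned nearly the whole range. Pairwise log2 fold changes lay between -0.11 and 0.21, with intervals from -0.66 to 0.77, so changes within that interval could not be resolved. Nqo1 was lower in the livers whose libraries had a higher GC correlation (Pearson r = -0.780, Spearman rho = -0.714, group means removed). The permutation p adjusted over 36 relations was 0.0284 for r and 0.0745 for rho. Leaving out the 2 farthest libraries gave r = -0.648 (adjusted permutation p = 0.155).

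Osgin1, an oxidative stress induced growth inhibitor gene (chromosome 8, 119434124 to 119446256, plus strand), measured 80.1, 123, 104, 113 and 117 CPM in combination mice, 57.5, 67.5, 218, 80.7 and 106 CPM in rosuvastatin mice, 139, 88.2, 61.5, 62.3 and 95.4 CPM in GGOH mice, and 131, 61.2, 60.4, 49.8 and 55.7 CPM in vehicle mice. All combination mice and 4 of 5 vehicle mice were separate, with vehicle mouse 1 above every combination mouse. The log2 fold change against vehicle was 0.58 ± 0.33 for the combination (edgeR adjusted p = 0.817; exact permutation p = 0.0476) and 0.56 ± 0.33 for rosuvastatin (edgeR adjusted p = 0.973; exact permutation p = 0.278). Over the 20 livers, with group means removed, Osgin1 was higher where the GC correlation of the library was higher (Pearson r = 0.574, Spearman rho = 0.540). The permutation p adjusted over 36 relations was 0.0495 for r and 0.0915 for rho. Leaving out the 2 farthest libraries gave r = 0.392 (adjusted permutation p = 0.377). Osgin1 was also higher where the TMM factor was higher (r = 0.589, rho = 0.591, adjusted permutation p 0.0495 for r and 0.0755 for rho). There r was 0.503 without 2 libraries (adjusted permutation p = 0.483). With the GC and length offsets the log2 fold change against vehicle was 0.40 for the combination (edgeR adjusted p = 0.821) and 0.35 for rosuvastatin (edgeR adjusted p = 0.952). Vehicle mouse 1 had the highest scaling factor of the study. Without this library and combination mice 2 and 3, Osgin1 gave 0.88 for the combination against vehicle (adjusted p = 0.745; exact permutation p = 0.0286), 0.91 for rosuvastatin (adjusted p = 0.316; exact p = 0.0635) and 0.67 for GGOH (adjusted p = 1.00; exact p = 0.0476). These 3 comparisons share the vehicle mice. Vehicle mouse 1 was the 1 vehicle mouse above the combination mice in Osgin1, so leaving it out separated these 2 groups. The exact p of the combination was thereby set to the smallest that its 35 assignments allow, and it adds no evidence. Leaving out vehicle mouse 1 also separated the GGOH mice (61.5 CPM or more) from the other vehicle mice (61.2 CPM or less). With all mice the exact permutation p of GGOH was 0.286, so its value in the reduced set adds no evidence either. In the same reduced set 1893 genes had an unadjusted p under 0.05 for rosuvastatin against vehicle, in place of 472.

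**Figure D3:**
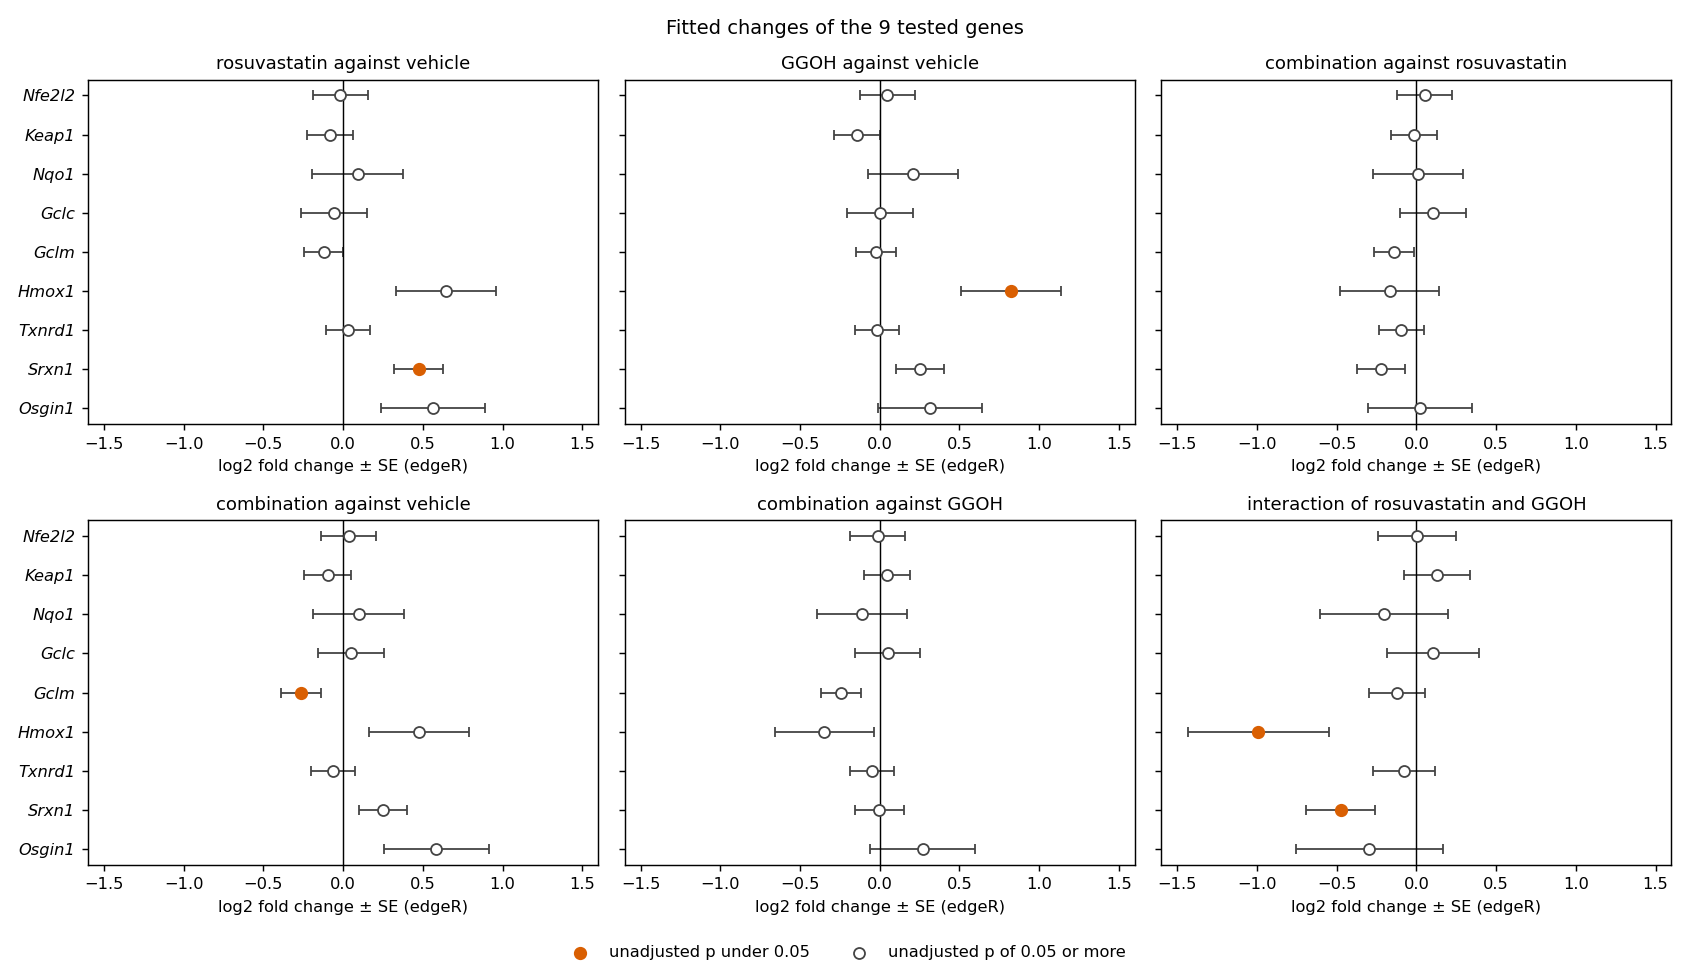
Fitted log2 fold change ± SE (edgeR, 20 livers) of the 9 tested genes in the 5 pairwise comparisons and the interaction; filled points have an unadjusted p under 0.05. Filled points are Srxn1 (0.47) and Hmox1 (0.82) against vehicle, Gclm (-0.26) in the combination, and the negative interactions of Hmox1 (-0.99) and Srxn1 (-0.48).

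Over the 9 tested members the median log2 fold change was 0.03 for rosuvastatin against vehicle (5 of 9 positive), 0.05 for GGOH against vehicle (6 of 9), -0.01 for the combination against rosuvastatin (4 of 9), 0.05 for the combination against vehicle (6 of 9) and -0.01 for the combination against GGOH (3 of 9). The medians of all tested genes in these comparisons lay between -0.02 and 0.01. On log2(TPM + 1), where the median of all genes was 0.13 for rosuvastatin against vehicle, 9 of 9 members were positive there and their median was 0.22. That setting changed the unit, the filter and the test together. With RLE size factors, which change the scaling of counts alone, 5 of 9 were positive. Gclm was -0.12 on the CPM scale and 0.15 on the TPM scale in that comparison.

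The ratio of 2 genes' counts within a library does not change with the TMM factor, but it is not the same in the deposited TPM values. The ratio of Srxn1 to Gclm counts was 0.266, 0.236, 0.302, 0.326 and 0.263 in combination mice, 0.320, 0.236, 0.322, 0.244 and 0.341 in rosuvastatin mice, 0.203, 0.272, 0.267, 0.214 and 0.232 in GGOH mice, and 0.200, 0.161, 0.204, 0.220 and 0.198 in vehicle mice. All 10 rosuvastatin and combination livers lay above all 5 vehicle livers in this ratio of counts. GGOH mice 2, 3 and 5 did too, and GGOH mice 1 and 4 did not. In TPM the ratio ran from 0.136 to 0.228 in combination mice, 0.169 to 0.240 in rosuvastatin mice, 0.121 to 0.158 in GGOH mice and 0.101 to 0.143 in vehicle mice. There all 5 rosuvastatin livers, 4 of 5 combination livers and 4 of 5 GGOH livers lay above every vehicle liver. Combination mouse 2 and GGOH mouse 4 did not. The ratio was chosen after the values were seen and is given as a description. How many other gene pairs separate the groups in this way was not counted.

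The members were compared with each other over the 20 livers after removing group means, by permutation within groups (36 pairs, 100000 permutations). On log2 CPM no pair passed an adjusted p of 0.05, by Pearson or Spearman, and the median r was 0.254. The smallest p belonged to Gclm with Txnrd1 (r = 0.522, rho = 0.635, adjusted p = 0.0646; r = 0.693 without the 2 farthest livers, adjusted p = 0.0594). Next came Keap1 with Nqo1 (r = -0.695, rho = -0.696, adjusted p = 0.0646; r = -0.438 without 2). Then followed Hmox1 with Srxn1 (r = 0.490, rho = 0.615, adjusted p of r 0.0804; r = 0.604 without 2), Txnrd1 with Osgin1 (r = 0.663, adjusted p = 0.0835; 0.260 without 2) and Nfe2l2 with Nqo1 (r = 0.593, adjusted p = 0.0835; 0.484 without 2). The subunits Gclc and Gclm had r = 0.117. On log2(TPM + 1) the same livers gave a median r of 0.599, 25 of 36 pairs passed, and Gclc with Gclm had r = 0.767. TPM values carry no correction for composition, and the part of library composition in these correlations was not tested.

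**Figure D4:**
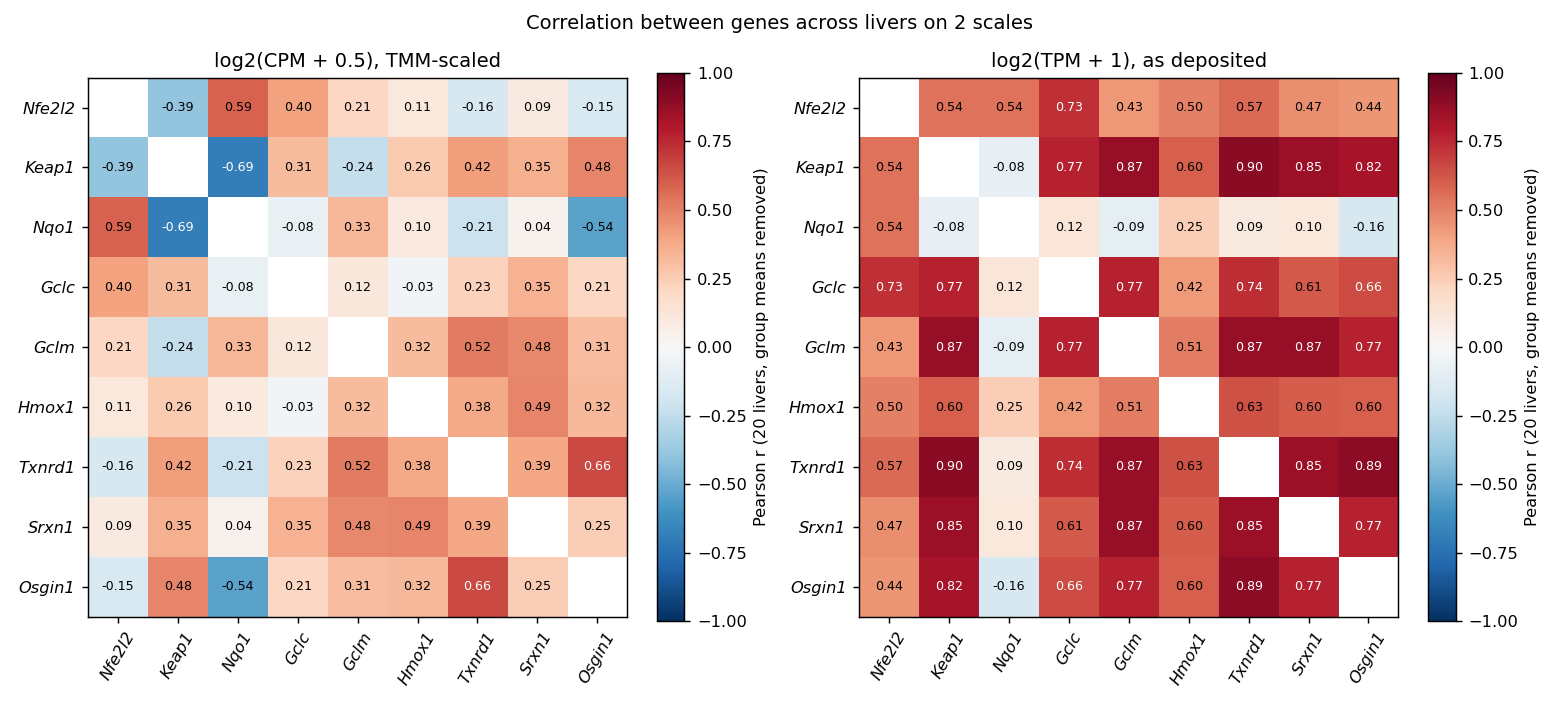
Pearson r between the 9 tested genes over 20 livers with group means removed, on TMM-scaled log2 CPM at left and on deposited TPM at right; the colour scale runs from -1 to 1. The median r is 0.254 at left and 0.599 at right, and Gclc with Gclm has 0.117 at left and 0.767 at right.

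Around the members, 49 further genes of NRF2 biology in 7 lists were looked up, of which 47 were tested (Gpx2 and Ggt1 were filtered out) and 0 passed an adjusted p. Of the 47, unadjusted p-values under 0.05 fell to 1 higher and 1 lower gene for rosuvastatin against vehicle (4.26%, against 3.69% of all genes) and to 1 higher and 0 lower for GGOH against vehicle (2.13%, against 2.86%). There were 6 higher and 2 lower for the combination against vehicle (17.0%, against 5.5%) and 5 higher and 1 lower for the combination against GGOH (12.8%, below the 14% of all genes). Averaged over GGOH, rosuvastatin had 6 higher and 2 lower (17.0%, against 14.4%), and averaged over rosuvastatin, GGOH had 2 higher and 0 lower (4.26%, against 1.7%). For the combination against rosuvastatin and for the interaction there were 0, against 1.69% and 2.89%. The phase II list (14 conjugation and reduction enzymes) was mostly on the higher side, with a median of 0.25 for rosuvastatin against vehicle (13 of 14 positive), 0.21 for GGOH against vehicle (14 of 14) and 0.41 for the combination against vehicle (12 of 14). These comparisons share the vehicle mice, and the medians of all genes were -0.02, -0.02 and 0.01. The NADPH supply list (6 enzymes) had medians of 0.34 and 0.32 in rosuvastatin and GGOH mice against vehicle, with 5 of 6 and 6 of 6 positive. Against vehicle the combination gave 0.40 (5 of 6 positive), with 1 gene higher and 1 lower at an unadjusted p under 0.05. The median was -0.04 for the combination against rosuvastatin (2 of 6), -0.06 against GGOH (3 of 6) and -0.40 for the interaction (0 of 6). For the phase II list the interaction median was -0.24 (4 of 14 positive). The phase II and NADPH supply lists had the highest medians of the 7 lists against vehicle. Medians of the other lists ran from 0.01 to 0.08 for rosuvastatin, -0.15 to 0.16 for GGOH and -0.05 to 0.21 for the combination.

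Among these genes, Me1, the malic enzyme that makes cytosolic NADPH and also serves lipogenesis, averaged 227 ± 44.2 CPM with GGOH and 143 ± 30.6 CPM with vehicle (SD, n = 5 each), a log2 fold change of 0.67 ± 0.20 (edgeR adjusted p = 1.00; exact permutation p = 0.0238). Averaged over rosuvastatin, GGOH gave 0.42 ± 0.14 for Me1 (exact permutation p = 0.00976). Gsta1, a glutathione transferase, averaged 20.3 ± 17.2 CPM with the combination and 4.51 ± 2.11 CPM with vehicle (SD, n = 5 each; 2.20 ± 0.68, edgeR adjusted p = 0.817; exact permutation p = 0.0794). The average effect of rosuvastatin was 1.43 ± 0.46 for Gsta1, 0.76 ± 0.26 for Gstm1 and -0.24 ± 0.08 for Cul3, the scaffold of the KEAP1 ligase (edgeR adjusted p = 0.327 each). The exact permutation p was 0.0876 for Gsta1, 0.0109 for Gstm1 and 0.000724 for Cul3, the 4 genes of this paragraph having been picked for small p-values. Of all genes, 15% had an exact p under 0.05 for this average effect of rosuvastatin. Cul3 measured 46.6 ± 3.31 CPM with the combination, 46.2 ± 2.99 with rosuvastatin, 53.4 ± 4.32 with GGOH and 56.1 ± 5.66 with vehicle (SD, n = 5 each). Gsta1 and Gstm1 belong to families of close copies, so how reads were divided among the copies is uncertain.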

How the data were processed

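Poly(A) RNA of 20 livers was sequenced as paired reads with TruSeq libraries on a NovaSeq, per the labels' protocols. The submitters' processing notes name kallisto 0.44.0, bcl2fastq 2.19, DESeq2 and the build GRCm38. The authors deposited kallisto estimated counts per gene, which were already whole numbers, and TPM values per gene, which the authors scaled for length and depth. Whether counting used strand is not given in the sources used here. One entry of 34934 has no gene name (0.00801 to 0.0157% of counts) and was left out.

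The test on counts was the quasi-likelihood test of edgeR 4.0.16 in R 4.3.3 (TMM, default low-count filter by group, 1 model of 4 groups over 20 livers) with Benjamini-Hochberg adjustment over 12789 genes. Alternatives were limma 3.58.1 on log2(TPM + 1) or log2(TPM + 0.1), DESeq2 1.42.0, other size factors and filters, a replicate block, fits of only the compared groups, leaving out each library, GC and length offsets, and leaving out 3 libraries; the last 2 were added after seeing the data, as was the exact permutation test of single values. The script was tested on simulated data. The members and gene lists were chosen with earlier results of these data known. All members are named, with fold change and p where the unadjusted edgeR p was under 0.05 or was the smallest in a comparison, and other NRF2 genes where it was under 0.01, at most 4 per comparison; values for other members are given where they show the range. P-values measure the spread between mice, and no 2 libraries were duplicates. Mice were not treated as paired by replicate number in the main model. Over 30 pairs of same-numbered livers the correlation of deviations ran from -0.423 to 0.444, and 10 were over 0.1. Differently numbered livers were not compared, so these values do not settle whether the numbers pair the mice. Gene positions are from GENCODE on GRCm38, promoters from RefSeq on GRCm38.p6.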

Additional observations from a re-analysis of the deposited data

Results flagged for a closer look

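Some values stood far from the other mice of their group by Dixon's gap test, in 3 of 40 groups of 5 mice, where chance gives about 2 (1 in 20). Keap1 was 29.9 CPM in rosuvastatin mouse 3, against 19.7 to 22.1 CPM in the other rosuvastatin mice. Nqo1 was 16.9 CPM in combination mouse 5, against 9.35 to 11.3 CPM in the other combination mice. Osgin1 was 131 CPM in vehicle mouse 1, against 49.8 to 61.2 CPM in the other vehicle mice; this library also had the highest scaling factor, 1.25.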

How the results depend on the processing

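Members passing an adjusted p of 0.05 numbered 0 in every setting run. The 9 fold changes followed across settings were those with an unadjusted edgeR p under 0.05, or the smallest p where none was. Each of these kept its direction in all settings. Other fold changes did not always do so, such as that of Gclm for rosuvastatin against vehicle on the CPM and TPM scales. Counts over all genes moved. With DESeq2 the genes called were 4 for rosuvastatin against vehicle, 1 for GGOH against vehicle, 2 for the combination against rosuvastatin, 4 for the combination against vehicle, 1 for rosuvastatin averaged over GGOH and 4 for GGOH averaged over rosuvastatin, none of them members; by edgeR these were 0, 0, 0, 0, 0 and 1. Without the low-count filter and on log2(TPM + 1), 1 gene each was called for the combination against rosuvastatin and against vehicle; on log2(TPM + 0.1), and on log2(TPM + 1) without a filter, 1 was called for the combination against vehicle. For GGOH averaged over rosuvastatin, 2 genes were called with GC and length offsets, 0 with the 3 libraries left out, and 0 with the replicate block; the block changed no other count of calls. Leaving out 1 library gave 0 to 1 calls for the combination against rosuvastatin (1 without rosuvastatin mouse 5 or vehicle mouse 4), 0 to 1 against vehicle (1 without rosuvastatin mouse 3 or 5) and 0 to 2 for GGOH averaged over rosuvastatin (0 without combination mouse 2, rosuvastatin mouse 2 or 4, GGOH mouse 3 or 4 or vehicle mouse 2, and 2 without rosuvastatin mouse 1). Correlated pairs of members numbered 25 on log2(TPM + 1), against 0 on log2 CPM. The causes were not tested. With 5 mice per group, pairwise SEs of the members were 0.12 to 0.33 on the log2 scale, which limits what could be resolved, and counts were too low for Slc7a11.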
